A study of Mus musculus with 6 samples.

Results

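The prostaglandin synthesis and receptor genes examined were Ptgs1, Ptgs2, Ptges, Ptgis, Ptger1, Ptger2, Ptger3, Ptger4, Ptgfr and Hpgd. These 10 genes, out of 27179 counted in every library, were matched from their symbols to NCBI Gene identifiers. They were chosen with earlier results of these data known. Their mRNA was measured by mRNA-seq in 3 mouse embryonic fibroblast (MEF) lines with 2 libraries each, which came from independent RNA preparations of nearly confluent cells. The parental line, CPN-/-, carried the genotype Cry1-/-, Cry2-/-, Per1-/-, Per2-/-, Nr1d1-/- and Nr1d2-/-, so that it lacked the cryptochromes, the PER repressors and the NR1D nuclear receptors of the circadian clock. The CPN-/- CRY1 line had the same 6 knockouts plus exogenous CRY1, and the CPN-/- CRY2 line had the same 6 knockouts plus exogenous CRY2. Both exogenous genes were driven by a viral promoter and were therefore outside the feedback of the clock, and the transduced cells were picked as single colonies after selection with blasticidin, so that each CRY line stood for 1 clone. An effect of the CRY protein and a property of the clone cannot be told apart in this design, and no wild-type fibroblasts were part of it. The tests measure the spread between RNA preparations of 1 line, not between independently derived lines.

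Prostaglandins are made from arachidonic acid, which phospholipase A2 releases from membranes. The cyclooxygenases, encoded by Ptgs1 and Ptgs2, convert it to prostaglandin H2, and terminal synthases then make the active lipids, among them prostaglandin E2 (PGE2) by the product of Ptges and prostacyclin by the product of Ptgis. The lipids leave the cell and act through G-protein-coupled receptors, of which Ptger1 to Ptger4 encode the PGE2 receptors EP1 to EP4 and Ptgfr the receptor of prostaglandin F2alpha, and Hpgd encodes the dehydrogenase that inactivates them. Fibroblasts are a known source of PGE2, and Ptgs2 is an early response gene in them that serum, growth factors and inflammatory cytokines induce.

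The sequences shown here are the 250 bases upstream of an annotated start of Ptges and of Ptgs2. Ptges was the member with the largest difference between lines. Ptgs2 was the most abundant member and the only one of 8 with a promoter entry that held any of the searched clock or inflammatory motifs. Both are RefSeq sequence of GRCm38.p6 in the direction of the gene. The Ptges sequence is read from the reverse strand and lies at chr2:30903298-30903547. This start of Ptges lies inside the span of the gene, chr2:30889471-30931020, and the span further upstream was not searched. The Ptgs2 sequence is read from the forward strand and lies at chr1:150099781-150100030. The third line is the 30-base site around the E-box of Ptgs2, at chr1:150100035-150100064 on the forward strand, with the motif in capitals.
Ptges upstream: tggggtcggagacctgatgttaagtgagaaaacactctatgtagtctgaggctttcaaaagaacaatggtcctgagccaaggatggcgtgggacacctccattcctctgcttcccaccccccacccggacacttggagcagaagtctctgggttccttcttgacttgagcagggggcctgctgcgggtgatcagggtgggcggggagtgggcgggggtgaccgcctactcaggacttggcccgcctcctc
Ptgs2 upstream: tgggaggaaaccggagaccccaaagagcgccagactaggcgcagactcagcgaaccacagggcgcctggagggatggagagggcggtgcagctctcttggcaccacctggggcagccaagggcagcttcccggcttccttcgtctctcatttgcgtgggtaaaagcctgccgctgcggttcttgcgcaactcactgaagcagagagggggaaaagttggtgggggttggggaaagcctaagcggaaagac
Ptgs2 E-box site: tcaccactacgtCACGTGgagtccgcttta
The E-box CACGTG, the element bound by CLOCK-BMAL1, stood at bases 17 to 22 after the start of Ptgs2, counted from 1 at the first transcribed base. The windows of 300 bases, 250 before and 50 after the start, were searched on both strands for CACGTG, for the E-prime box CACGTT, for the cyclic AMP response element TGACGTCA and for the NF-kB consensus. Of 32851 windows of that length, 7.15% held the E-box, 4.68% the E-prime box, 1.79% the cyclic AMP response element and 4.51% the NF-kB consensus. No match among the other 7 members says only that these letters were not in that window, and other starts of these genes were not searched.

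The libraries held between 25957409 and 36106949 counts, and 14069 genes were tested. The labels were checked on the targeted genes, with levels in CPM, counts per 1000000 of the library's TMM-scaled total. Cry1 mRNA was at 125 and 115 CPM in CPN-/-, at 165 and 190 CPM in the CRY1 line and at 51.0 and 48.3 CPM in the CRY2 line. Cry2 mRNA was at 136 and 129 CPM in CPN-/-, at 50.7 and 51.7 CPM in the CRY1 line and at 349 and 351 CPM in the CRY2 line. Each exogenous gene was thus highest in the line named for it, while reads of the knocked-out genes were still counted in CPN-/-. Of 10 fibroblast markers, 7 were over 1 CPM in every library, including Col1a1, Col1a2 and Vim, but Lum, Dcn and Thy1 were low, at most 2.24 CPM. Summed markers of macrophages (6 genes, 3.19 to 6.25 CPM), endothelial (4 genes, at most 1.0 CPM), epithelial (4 genes, at most 0.482 CPM, Epcam at 0) and mast cells (4 genes, at most 0.0371 CPM) were low. The 5 smooth muscle genes, mostly Acta2 and Tagln, summed to 1410 and 1790 CPM in CPN-/-, 5120 and 5310 CPM in the CRY1 line and 2140 and 2380 CPM in the CRY2 line, and their part in the results below was not tested. The CPN-/- libraries were less alike than the pairs of the other lines: chi-square over its degrees of freedom came to 66.97 for CPN-/- and to 5.03 and 10.2 for the CRY1 and CRY2 lines. The difference of CPN-/- library 1 minus library 2 rose with the length of the transcript (Spearman's rho 0.659 over 12478 genes, all from 1 library pair). The same rho was -0.198 for the CRY1 pair and 0.271 for the CRY2 pair.

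**Figure D1:**
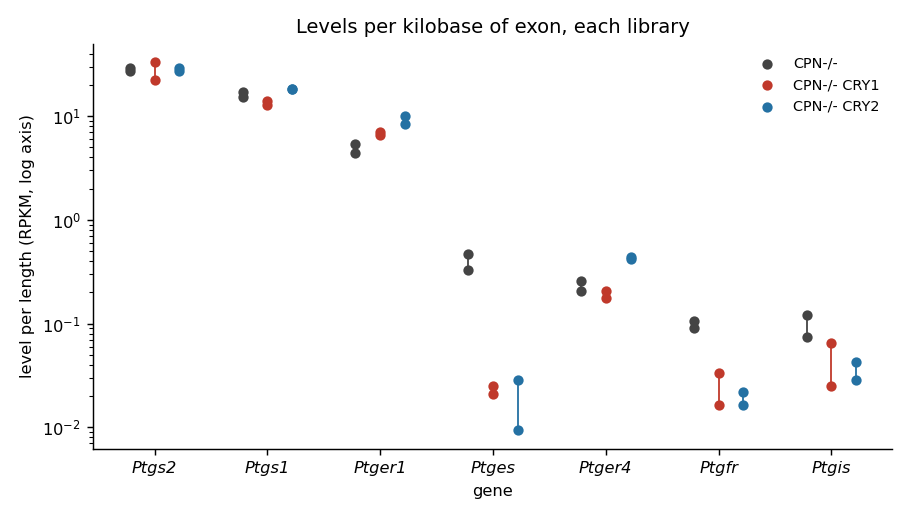
Level per length (RPKM, log axis) of the 7 members with reads in every library, by gene, with 1 point per library joined by a line within each cell line. Ptgs2 and Ptgs1 stood highest in all 6 libraries, and Ptges lay next below Ptger1 in CPN-/- and at the level of Ptgfr and Ptgis in both CRY lines.

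The cyclooxygenases were the most abundant of these mRNAs, and Ptger1 was the most abundant receptor. Per kilobase of exon, Ptgs2 had a mean of 28.0 RPKM in CPN-/-, 27.5 in CPN-/- CRY1 and 28.2 in CPN-/- CRY2 (n = 2 libraries per line), and Ptgs1 had 16.3, 13.5 and 18.3 RPKM. The ratio of Ptgs2 to Ptgs1 per length was between 1.49 and 2.55 over the libraries. Ptger1 followed with means of 4.87, 6.84 and 9.21 RPKM in CPN-/-, CPN-/- CRY1 and CPN-/- CRY2. The other members were all under 1 RPKM. In CPN-/- their order was Ptges at 0.398, Ptger4 at 0.234, Ptgfr at 0.0986 and Ptgis at 0.0965 RPKM, and the libraries of Ptgfr and Ptgis overlapped. In CPN-/- CRY1 the order was Ptger4 at 0.192, Ptgis at 0.0450, Ptgfr at 0.0249 and Ptges at 0.0229 RPKM, and the last 3 overlapped with their neighbours. In CPN-/- CRY2 Ptger4 had 0.425 RPKM, and Ptgis, Ptgfr and Ptges had 0.0359, 0.0191 and 0.0188 RPKM, each from at most 4 counts in a library. Ptger2 had at most 2 counts in any library, and Ptger3 and Hpgd had none.

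**Figure D2:**
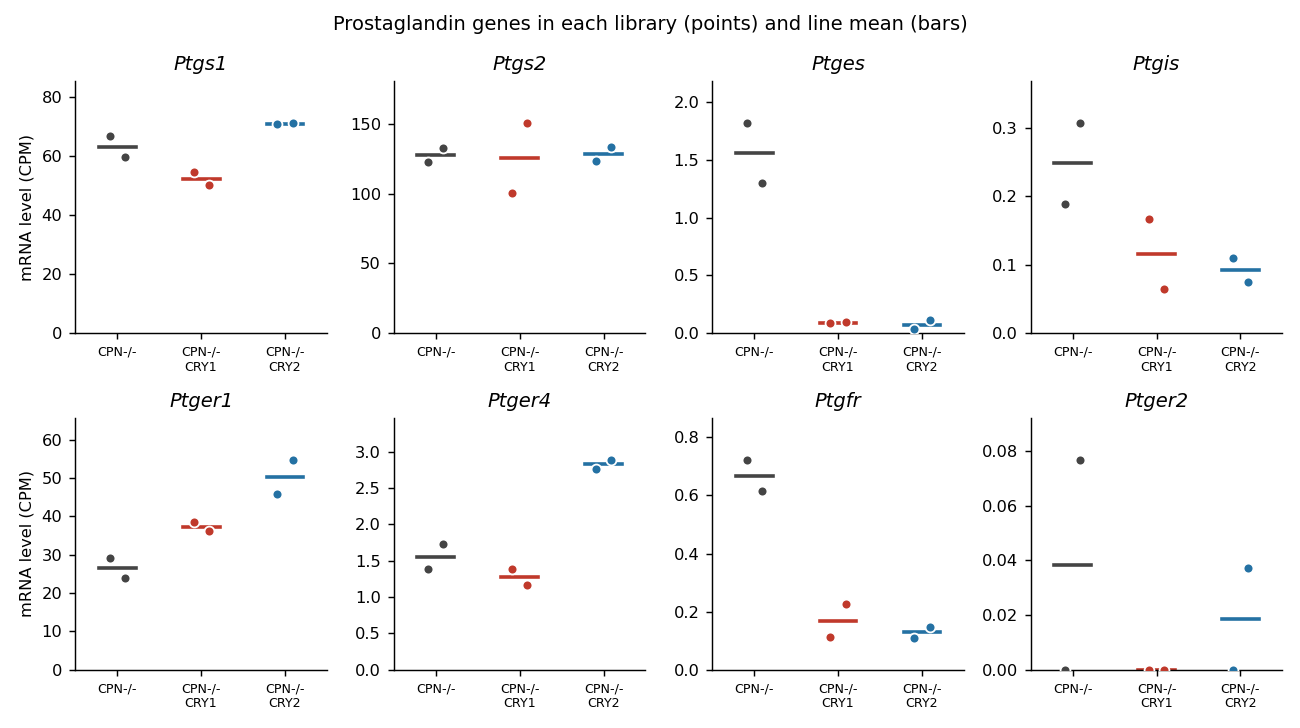
mRNA level (CPM, linear axes from 0) of 8 members in each library, with 1 point per library and a bar at the mean of the 2 libraries of each line; Ptger3 and Hpgd had 0 counts throughout and are not drawn. Ptges and Ptgfr were high in both CPN-/- libraries alone, Ptger1 was lowest in CPN-/-, Ptger4 was highest in CPN-/- CRY2, and Ptgs2 overlapped between all lines.

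Ptgs2 (NCBI Gene 19225, chr1:150100031-150108234, forward strand), the inducible cyclooxygenase, did not differ between the 3 lines beyond the spread of the libraries. Its mRNA was 123 and 133 CPM in CPN-/-, 101 and 151 CPM in the CRY1 line, and 124 and 134 CPM in the CRY2 line. All 3 lines overlapped, and the widest gap was between the 2 libraries of CPN-/- CRY1. Against the parental line, the CRY1 line had a log2 fold change of -0.02 (95% interval -0.46 to 0.41, edgeR adjusted p = 0.93). For the CRY2 line against the parental line the value was 0.01 (95% interval -0.42 to 0.44, edgeR adjusted p = 0.97). Between the CRY lines it was -0.04 (95% interval -0.47 to 0.40, edgeR adjusted p = 0.93), so a difference of up to those bounds was not detectable with these libraries. The median log2 fold change of the 751 tested genes on chromosome 1 in CPN-/- CRY1 against CPN-/- was 0.107.

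Ptgs1 (NCBI Gene 19224, chr2:36216742-36258593, forward strand), the constitutive cyclooxygenase, was lower in the CRY1 line than in the CRY2 line. The parental libraries had 66.8 and 59.8 CPM, the CRY1 libraries 54.8 and 50.1 CPM and the CRY2 libraries 70.9 and 71.3 CPM. The 3 lines did not overlap, with the parental line between the CRY lines. Exons of Gm43621 on the opposite strand shared 148 of the 3884 exon bases of Ptgs1. The CRY1 line had a 1.36-fold lower level than the CRY2 line, a log2 fold change of -0.44 (SE 0.10, 95% interval -0.68 to -0.19, edgeR adjusted p = 0.031). Neither CRY line passed the test against CPN-/-, with -0.27 (SE 0.10, edgeR adjusted p = 0.097) for CRY1 and 0.17 (SE 0.10, edgeR adjusted p = 0.35) for CRY2. The call between the CRY lines was lost when any 1 of their 4 libraries was left out, with a log2 fold change between -0.50 and -0.38. It held in every alternative with 2 libraries in each CRY line. The 4 CRY libraries alone gave an edgeR adjusted p of 3.2e-07, and chromosome medians removed gave the largest edgeR value, 0.039. Against CPN-/-, the CRY1 value of Ptgs1 passed without either CPN-/- library (-0.19 and -0.34, adjusted p = 0.031 and 2.3e-04) and the CRY2 value without CPN-/- library 1 (0.25, adjusted p = 0.0051). In every fit with 1 CPN-/- library, that library was assumed to vary like the CRY lines, although the CPN-/- libraries differed most. For a comparison with CPN-/-, the adjusted p of such a fit is therefore too small and lends no support to a call.

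Ptges (NCBI Gene 64292, chr2:30889471-30931020, reverse strand), which encodes the inducible microsomal PGE2 synthase, was nearly absent from both CRY lines. In CPN-/- it had 58 and 34 counts (1.82 and 1.30 CPM). CPN-/- CRY1 had 3 counts in each library (0.0830 and 0.0973 CPM), and CPN-/- CRY2 had 1 and 3 counts (0.0367 and 0.111 CPM). Every CPN-/- library lay above every CRY library. Relative to CPN-/-, the CRY1 line had a log2 fold change of -4.08 (SE 0.43, edgeR adjusted p = 0.0015) and the CRY2 line one of -4.34 (SE 0.47, edgeR adjusted p = 0.0034). From the summed counts, Ptges was 17.7-fold higher in CPN-/- than in CPN-/- CRY1 (92 against 6 counts, exact 95% interval 7.85 to 49.6) and 21.5-fold higher than in CPN-/- CRY2 (92 against 4 counts, 8.13 to 80.7), where the intervals cover counting error alone. The CRY lines did not pass the test against each other, with a log2 fold change of 0.27 (SE 0.82, 95% interval -1.68 to 2.21, edgeR adjusted p = 0.88), an interval that leaves room for a several-fold difference. Both calls against CPN-/- held in every alternative that tested Ptges with 2 libraries per line. The largest edgeR adjusted p among these was 0.0045 for CRY1 and 0.014 for CRY2, each from the compared libraries alone. Ptges passed the filter on low counts only through CPN-/-, the line in which it was high. With a minimum count asked of every library, it could not be tested. Leaving out a library leaves 1 in a line, so only the size is given for those fits. The size went from -4.28 to -3.80 in CRY1, and in CRY2 it was -3.77 without CRY2 library 1 and -5.27 without CRY2 library 2. No other annotated gene shared exon bases with Ptges. In bulk RNA, fewer cells that express a gene and less of its mRNA per cell cannot be told apart.

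Ptgis (NCBI Gene 19223, chr2:167203194-167252150, reverse strand), the prostacyclin synthase gene, was under the count minimum and was not tested. It had 6 and 8 counts in CPN-/-, 6 and 2 in the CRY1 line and 3 and 2 in the CRY2 line. In CPM both CPN-/- libraries were above all 4 CRY libraries, at 0.189 and 0.307 against 0.0649 to 0.166, but on few reads. The ratio of the summed counts of CPN-/- to the CRY1 line was 2.03 (exact 95% interval 0.793 to 5.57) and to the CRY2 line 2.62 (0.893 to 9.30), and both intervals include equal levels.

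The PGE2 receptor genes ranged from abundant to undetected. Ptger1 (NCBI Gene 19216, chr8:83666644-83672756, forward strand), which encodes EP1, a receptor that raises intracellular calcium, was higher in both CRY lines than in CPN-/-. It had 29.2 and 24.0 CPM in CPN-/-, 38.6 and 36.1 CPM in the CRY1 line and 45.8 and 54.8 CPM in the CRY2 line. The lines did not overlap, with CPN-/- lowest and CPN-/- CRY2 highest. Against CPN-/- the log2 fold change was 0.49 in the CRY1 line (SE 0.14, edgeR adjusted p = 0.046) and 0.92 in the CRY2 line (SE 0.14, edgeR adjusted p = 0.012). The CRY1 line was lower than the CRY2 line by -0.43, which did not pass the test (SE 0.14, 95% interval -0.76 to -0.10, edgeR adjusted p = 0.082). The CRY1 call was lost without any 1 of the 4 CRY libraries (adjusted p between 0.080 and 0.23) and under 4 other alternatives (0.051 to 0.081). The CRY2 call was lost without CRY2 library 1 (1.05, adjusted p = 0.059) or 2 (0.78, adjusted p = 0.13). The difference between the CRY lines passed the test when either CPN-/- library was left out (-0.43, adjusted p = 1.7e-05 and 1.2e-05, with less of the CPN-/- spread in the fit), with the 4 CRY libraries alone (1.6e-05) or without the length trend (-0.44, 0.013).

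The library kit kept the strand of the RNA, but the strand setting of the counting was not given in the sources used here. Reads from opposite strands of a locus therefore cannot be told apart for Ptger1, nor for Ptger4, Ptgfr, Ptgs1 or Ptgr2, whose shared exon bases are given with each gene. Opposite-strand exons also overlapped Ptgis (1110018N20Rik, 156 of 2567 exon bases) and Ptger2 (Gm17173, 246 of 5193, and Gm49364, 144 of 5193). They overlapped Slco2a1 (n-R5s89, 104 of 13545), Cry2 (D930015M05Rik, 295 of 6320), Tbxas1, Prxl2b, Ptgdr and Ptgdr2 as well. The level of each of these genes and its differences between lines hold only as far as its counts come from the gene itself, which was not tested.

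Ptger4 (NCBI Gene 19219, chr15:5233399-5244187, reverse strand), which encodes EP4, a receptor that raises cyclic AMP, was higher in the CRY2 line than in the CRY1 line. It had 44 and 45 counts in CPN-/- (1.38 and 1.73 CPM), 50 and 36 counts in CPN-/- CRY1 (1.38 and 1.17 CPM), and 75 and 78 counts in CPN-/- CRY2 (2.76 and 2.89 CPM). Both CRY2 libraries were above all others, while CPN-/- CRY1 and CPN-/- met at 1.38 CPM. The log2 fold change of CRY1 against CRY2 was -1.14 (SE 0.20, edgeR adjusted p = 0.012), a 2.20-fold difference. Against CPN-/-, the CRY2 line was at 0.87 (SE 0.20, edgeR adjusted p = 0.053), just outside the threshold, and the CRY1 line was at -0.27 (SE 0.22, edgeR adjusted p = 0.38). On chromosome 15, the median of 530 tested genes was itself -0.432 between CRY1 and CRY2 and -0.362 between CRY1 and CPN-/-. With each chromosome's median removed, the difference of Ptger4 between the CRY lines was -0.73 (adjusted p = 0.070) and no longer passed the test. The call was also lost without any 1 of the 4 CRY libraries (-1.27 to -1.03). It held in the other alternatives with 2 libraries in each CRY line, with an edgeR adjusted p of 4.6e-05 from the 4 CRY libraries alone. The CRY2 value against CPN-/- passed without either CPN-/- library (0.71 and 1.03, adjusted p = 0.024 and 0.0042, with the spread taken from the CRY lines), with no count minimum (0.039) or without the length trend (0.027). Exons of Ttc33 and Gm15937 on the opposite strand shared 82 and 1015 of its 6648 exon bases.

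Ptger2, which encodes EP2, another receptor that raises cyclic AMP, had 2 counts in CPN-/- library 2, 1 count in CPN-/- CRY2 library 2 and 0 elsewhere. Ptger3, which encodes EP3, a receptor that lowers cyclic AMP, had 0 counts in all 6 libraries. A count of 0 allows a level of up to 0.083 to 0.115 CPM per library, taking 3 counts as the limit, and any difference under that was not detectable at this depth. EP1 and EP4 were therefore the only PGE2 receptors whose mRNA exceeded that limit in every library, and Ptger1 was 16.9 to 37.6 times as abundant as Ptger4 per length, with the strand of the reads unknown for both genes.

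Ptgfr (NCBI Gene 19220, chr3:151798610-151837528, reverse strand), which encodes FP, the receptor of prostaglandin F2alpha, was lower in both CRY lines. It had 23 and 16 counts in CPN-/- (0.723 and 0.614 CPM), 4 and 7 counts in CPN-/- CRY1 (0.111 and 0.227 CPM) and 3 and 4 counts in CPN-/- CRY2 (0.110 and 0.148 CPM). The CPN-/- libraries lay above all 4 CRY libraries. On the log2 scale the CRY1 line differed from CPN-/- by -2.00 (SE 0.41, edgeR adjusted p = 0.016) and the CRY2 line by -2.34 (SE 0.46, edgeR adjusted p = 0.030). The ratio of the summed counts of CPN-/- was 4.10 to the CRY1 line (exact 95% interval 2.06 to 8.88) and 5.22 to the CRY2 line (2.31 to 13.8). Both intervals cover counting error alone. Like Ptges, Ptgfr passed the filter on low counts only through CPN-/-, the line in which it was high. The CRY lines did not pass the test against each other (0.34, SE 0.60, 95% interval -1.08 to 1.76, edgeR adjusted p = 0.79). The median of the 638 tested genes on chromosome 3 was -0.278 in CRY1 and 0.111 in CRY2 against CPN-/-, and -0.404 between the CRY lines. With these medians removed, Ptgfr was at -1.73 in CRY1 (adjusted p = 0.031) and -2.45 in CRY2 (adjusted p = 0.025). The CRY1 call was lost without CRY1 library 1 (-1.55, adjusted p = 0.12) or 2 (-2.56, 0.056). The CRY2 call was lost without CRY1 library 1 or 2 (-2.34, 0.051 in each), without CRY2 library 1 (-2.15, 0.24) or 2 (-2.56, 0.18), and with DESeq2's Wald test (-2.37, 0.063). Exons of Gm43618 on the opposite strand shared 329 of its 6778 exon bases.

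Hpgd, which encodes 15-hydroxyprostaglandin dehydrogenase, the enzyme that begins the inactivation of prostaglandins, had 0 counts in every library. The limit of 0.083 to 0.115 CPM holds for it as well.

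**Figure D3:**
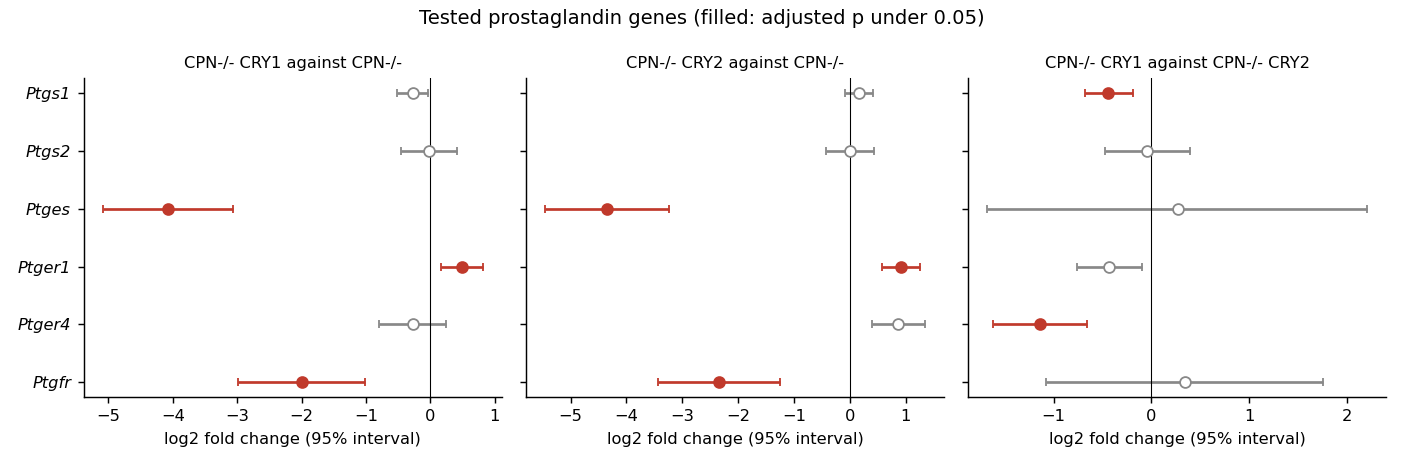
Log2 fold change of the 6 tested members in the 3 comparisons, with 95% intervals as horizontal lines; filled points passed the test at an adjusted p under 0.05. Ptges and Ptgfr lay far below 0 in both comparisons with CPN-/-, Ptger1 above 0 in both, and Ptgs1 and Ptger4 below 0 between the CRY lines.

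Counted over the members, 6 of 10 were tested. In CPN-/- CRY1 against CPN-/-, 2 were lower (Ptges and Ptgfr), where 13.1% of all tested genes were called lower, and 1 was higher (Ptger1), where 11.2% were called higher, so that 3 of 6 were called in either direction against 24.3%. In CPN-/- CRY2 against CPN-/-, Ptges and Ptgfr were lower against 4.08% of all tested genes, and Ptger1 was higher against 2.58%, again 3 of 6 in either direction, against 6.66%. Between CPN-/- CRY1 and CPN-/- CRY2, 2 were lower in CRY1 (Ptgs1 and Ptger4), against 8.57% of all genes, and 0 were higher, against 7.72%, with 16.3% called in either direction. Ptges and Ptgfr passed the filter on low counts only through CPN-/-, the line in which they were high. The list was also chosen with earlier results of these data known. The numbers of members called are therefore no support for a change of the list. Both comparisons with CPN-/- share the CPN-/- libraries.

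The rest of the pathway was described by 20 further genes, of which 15 were tested. Those under the minimum were the terminal synthase genes Ptgds, Hpgds and Tbxas1, the reductase gene Prxl2b and the prostaglandin D2 receptor gene Ptgdr, with at most 4 counts in any library and 0 throughout for Ptgdr. In CPN-/- CRY1 against CPN-/-, 4 of 15 were called lower and 0 higher, against 13.1% and 11.2% of all tested genes, and the median log2 fold change was 0.01 against -0.01 over all tested genes. In CPN-/- CRY2 against CPN-/-, 1 of 15 was called lower and 0 higher, against 4.08% and 2.58%, with a median of -0.10 against -0.01. Between the CRY lines, 1 was lower and 1 higher in CRY1, against 8.57% and 7.72%, with a median of -0.06.

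**Figure D4:**
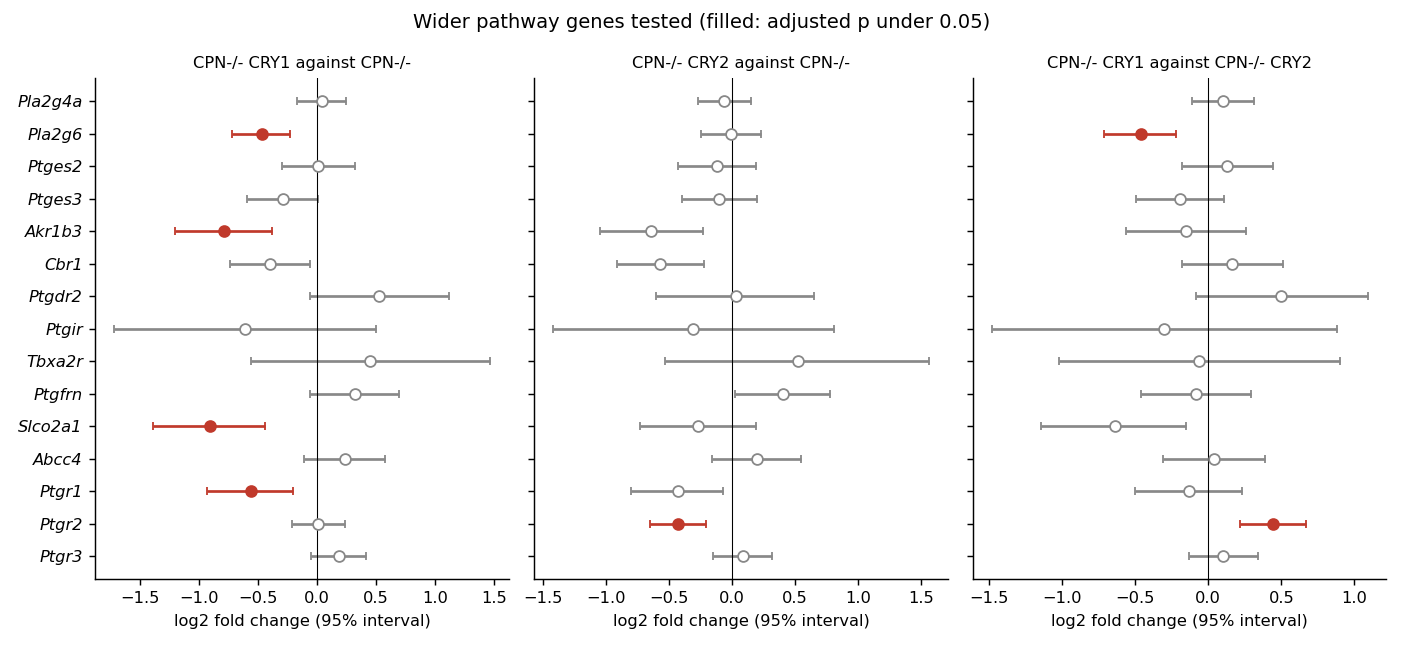
Log2 fold change of the 15 tested genes of the rest of the pathway in the 3 comparisons, with 95% intervals as horizontal lines; filled points passed the test at an adjusted p under 0.05. In CPN-/- CRY1 against CPN-/- the 4 filled points lie between -0.91 and -0.47, and Ptgir and Tbxa2r have the widest intervals.

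Of the genes that release arachidonic acid, Pla2g4a, the cytosolic phospholipase A2, was at 182 to 200 CPM in all 6 libraries and passed no test. Pla2g6, a calcium-independent phospholipase A2, had 24.6 and 22.7 CPM in CPN-/-, 17.0 and 17.1 CPM in the CRY1 line and 23.0 and 24.0 CPM in the CRY2 line. Only the CRY1 libraries of Pla2g6 stood apart. It was lower in CRY1 than in CPN-/- (-0.47, SE 0.10, edgeR adjusted p = 0.019) and than in CPN-/- CRY2 (-0.46, SE 0.10, edgeR adjusted p = 0.026). Pla2g6 lies on chromosome 15 like Ptger4, and with chromosome medians removed its values were -0.11 (adjusted p = 0.46) and -0.05 (adjusted p = 0.81). Leaving out any 1 CRY library also ended both Pla2g6 calls, with adjusted p between 0.066 and 0.22.

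Among the enzymes after the cyclooxygenases, the other PGE2 synthase genes differed from Ptges in level and in pattern. Ptges2, a membrane-associated synthase, was at 25.2 to 31.7 CPM, and Ptges3, the cytosolic synthase also known as the HSP90 co-chaperone p23, was at 252 to 351 CPM, and neither passed a test. Akr1b3, an aldo-keto reductase that can make prostaglandin F2alpha, had 32.9 and 47.1 CPM in CPN-/-, 22.4 and 24.0 CPM in the CRY1 line and 24.9 and 26.4 CPM in the CRY2 line. CPN-/- was above both CRY lines, with a wide gap between its own libraries. Akr1b3 fell in CRY1 by 0.79 on the log2 scale (SE 0.17, edgeR adjusted p = 0.020), and its CRY2 value was -0.64 (SE 0.17, edgeR adjusted p = 0.087). The CRY1 call of Akr1b3 was lost without any 1 CRY library and with the 4 libraries compared alone (edgeR adjusted p = 0.054). The CRY2 value passed with no count minimum (edgeR adjusted p = 0.028), with a replicate block (0.046) and by DESeq2's Wald test (adjusted p = 0.018). It did not pass in the other alternatives with 2 libraries per line. Without CPN-/- library 1 or 2 it was -0.88 or -0.35, with the spread of the CRY lines in place of that of CPN-/-.

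Slco2a1, the prostaglandin transporter that takes the lipids into cells, had 2.80 and 2.30 CPM in CPN-/-, 1.41 and 1.30 CPM in the CRY1 line and 2.28 and 1.96 CPM in the CRY2 line. Its CRY1 libraries were the lowest. It was lower in CRY1 than in CPN-/- (-0.91, SE 0.20, edgeR adjusted p = 0.020), and this call was lost without CRY1 library 1 (-0.98, 0.12) or 2 (-0.86, 0.15). Its value between the CRY lines was -0.64 (SE 0.21, edgeR adjusted p = 0.082), and it was also -0.64 without either CPN-/- library. It passed with the 4 CRY libraries alone (edgeR adjusted p = 0.02) and without the length trend (0.047). It did not pass in the other alternatives with 2 libraries per line. Abcc4, an exporter of prostaglandins, was at 15.3 to 21.5 CPM and passed no test.

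The reductases that break prostaglandins down were expressed although Hpgd was not detected. Ptgr1, prostaglandin reductase 1, had 56.1 and 76.3 CPM in CPN-/-, 45.4 and 44.2 CPM in the CRY1 line and 46.9 and 51.3 CPM in the CRY2 line. CPN-/- was highest, and its 2 libraries differed more than those of the CRY lines. Ptgr1 fell in CRY1 (-0.56, SE 0.15, edgeR adjusted p = 0.039), a call lost without any 1 CRY library (adjusted p between 0.089 and 0.22). In CRY2 it was at -0.43 (SE 0.15, edgeR adjusted p = 0.16), which passed without CPN-/- library 1 (-0.64, 1.3e-08), a fit that takes the spread from the CRY lines although the CPN-/- libraries of Ptgr1 were the furthest apart. Ptgr2, prostaglandin reductase 2, had 42.9 and 41.2 CPM in CPN-/-, 42.9 and 42.1 CPM in the CRY1 line and 32.1 and 30.4 CPM in the CRY2 line. Here the CRY2 libraries alone stood below the others. Ptgr2 was lower in CRY2 than in CPN-/- (-0.43, SE 0.09, edgeR adjusted p = 0.044) and higher in CRY1 than in CRY2 (0.44, SE 0.09, edgeR adjusted p = 0.022). Both Ptgr2 calls were lost without any 1 CRY library, with adjusted p between 0.15 and 0.37, and exons of Gm47484 on the opposite strand shared 1896 of its 5929 exon bases.

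**Figure D5:**
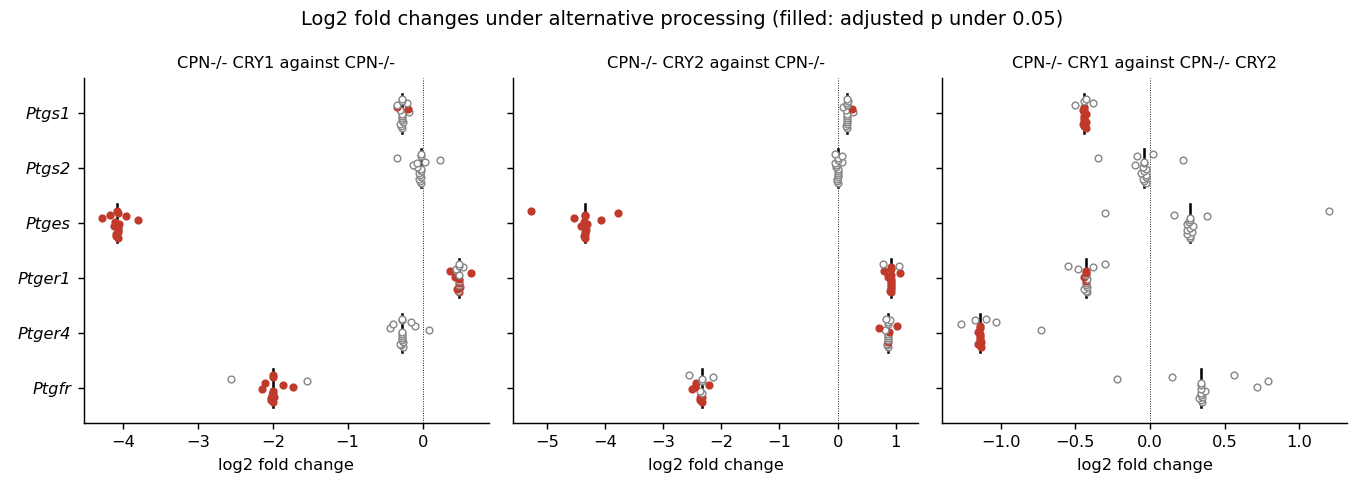
Log2 fold change of the 6 tested members in the 3 comparisons under each alternative processing (points; filled where the adjusted p was under 0.05) and in the fit reported here (black bars). All points of Ptges against CPN-/- lie at or below -3.77, with none for the minimum count in every library, where Ptges could not be tested. Those of Ptgs2 lie on both sides of 0 and none is filled.

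The genes closest to each called member were taken as those with the smallest Euclidean distance of centred log2 CPM over the 6 libraries, among 11408 or 11409 other tested genes of at least 100 counts on average. Those nearest to Ptges were Fbln2 (distance 0.833), Ccl2 (1.00) and Bcl3 (1.12). For Ptgfr they were Cxcl12 (0.605), Nfkbiz (0.612) and Nfkbie (0.618). In the CRY lines, Ptges and Ptgfr had at most 7 counts in any library, and 2 counts scaled to library size were added before the logarithm. Ptger1 was nearest to Ehbp1 (0.178), Rgl1 (0.188) and 4930483K19Rik (0.217), and Ptger4 to Cdh26 (0.172), Nat2 (0.288) and Trib2 (0.330). Those of Ptgs1 were Abhd18 (0.0683), Unk (0.0805) and Sesn1 (0.0814). The distances describe patterns over 6 libraries of 3 lines, where many genes share a pattern.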

How the data were processed

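Stranded polyA mRNA libraries from 6 RNA preparations, 2 per line, were sequenced as paired-end reads. The authors mapped them to mm10 with RNA STAR and made counts per gene with featureCounts; the deposited counts are whole numbers by NCBI Gene identifier, with no normalization. The gene annotation, the strand setting and the treatment of reads with several matches were not given in the sources used here.

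The default filter of edgeR 4.0.16 (R 4.3.3), filterByExpr with a minimum count of 10 and a total of 15, left 14069 of 27179 genes. The quasi-likelihood test with TMM factors was fitted to all 6 libraries with the line as its only term, and p-values were adjusted by Benjamini-Hochberg over all tested genes, with a threshold of 0.05. Fold changes are on the log2 scale, and each SE was derived from that value and its F statistic. CPM are counts per 1000000 of the TMM-scaled library total, and RPKM divides CPM by the exon union of GENCODE (GRCm38). Ratios of low counts have exact binomial 95% intervals. For a count of 0, a fixed limit of 3 counts was taken and expressed in CPM of each library. The intervals and limits cover counting error only. Symbols and positions came from RefSeq; Ptgr3 is listed there as Zadh2 and was matched by synonym. Overlaps of exons were taken from GENCODE; those of Ptger1 are not reported here.

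The alternatives were DESeq2 1.42.0 size factors, library size or upper-quartile factors; genes with 1 count or more in place of the filter; 10 counts or more in each of the libraries; a replicate block; the 4 libraries of a comparison; DESeq2's Wald test; a loess curve (span 0.5) on transcript length or chromosome medians taken out as an offset; and each library left out in turn. The fit was tested on simulated data. The members, lists and tests were chosen with earlier results of these data known. The genes named were all members, every further pathway gene called in at least 1 comparison, and for each called member the 3 genes of most similar pattern, plus the median of a member's chromosome where it was over 0.1 in size. Of other pathway genes, those that passed no test were named after their values were seen. Groups of 2 libraries allow no test for an outlying library.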

Additional observations from a re-analysis of the deposited data

Results flagged for a closer look

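Of the members, 2 differed between the CRY1 and CRY2 lines by the direct test of that difference. Ptgs1 was lower in CPN-/- CRY1 by a log2 fold change of -0.44 (SE 0.10, edgeR adjusted p = 0.031), and Ptger4 was lower there by -1.14 (SE 0.20, edgeR adjusted p = 0.012). Of the rest of the pathway, Pla2g6 was lower in CPN-/- CRY1 (-0.46, SE 0.10, edgeR adjusted p = 0.026) and Ptgr2 was higher (0.44, SE 0.09, edgeR adjusted p = 0.022). Of all tested genes, 16.3% were called in this comparison. Ptger4 and Pla2g6 both lie on chromosome 15, whose tested genes had a median of -0.432 in the same comparison, and neither was called once the chromosome medians were removed.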

How the results depend on the processing

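Of 282 values of the members under alternatives, 232 kept their direction and their side of the threshold, 26 lost the call, 11 gained one and 13 turned direction. With 10 counts in every library, Ptges and Ptgfr could not be tested, and the members called fell to 0 for the CRY1 line, where Ptger1 was tested but missed the threshold (0.48, adjusted p = 0.051), and to 1 for the CRY2 line against CPN-/-. Leaving out 1 library gave 1 to 4 members called in CRY1 against CPN-/-, 1 to 5 in CRY2 against CPN-/- and 0 to 3 between the CRY lines, while the share of all genes called ranged from 4.83% to 63.7%, 1.31% to 57.0% and 3.39% to 48.7%. The low counts came with 1 library left in a CRY line and the high shares with 1 left in CPN-/-. A lone library was assumed to vary like the other lines. For CPN-/-, the most variable line, this makes the adjusted p of the comparisons with CPN-/- too small. With chromosome medians removed, 1 member was called between the CRY lines.

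Of the further pathway genes, the 4 libraries compared gave 1 call in CRY1 against CPN-/-, 0 in CRY2 against CPN-/- and 5 between the CRY lines. In CRY2 against CPN-/- there were 3 calls with no filter other than 1 count, with DESeq2's Wald test or without the length trend, and 0 with 10 counts in every library. Chromosome medians removed left 1 between the CRY lines. Leaving out 1 library gave 0 to 9, 0 to 8 and 0 to 5 calls. Except where the construction shows it, the cause was not tested.

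The replicate numbers did not pair the libraries: deviations of same-numbered libraries correlated at -0.079, 0.141 and -0.03. The replicate block left the counts of called members at 3, 3 and 2 and those of the further genes at 4, 1 and 2; with it, Akr1b3 passed in CRY2 (adjusted p = 0.046) while Ptgr2 (0.066) did not.

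None of the 19 values that turned direction passed the test; with the opposite extremes without 1 library, they were as follows. Ptgs2 in CRY1 against CPN-/- was 0.037 without CPN-/- library 2 and 0.23 or -0.34 without CRY1 library 1 or 2. In CRY2 against CPN-/- it was -0.0082 by library size, -0.0036 by upper quartile, -0.029 without the length trend, -0.033 without chromosome medians, -0.044 and 0.08 without CPN-/- library 1 or 2, and -0.043 without CRY2 library 2. Between the CRY lines Ptgs2 was 0.22 and -0.35 without CRY1 library 1 or 2 and 0.018 without CRY2 library 2, Ptges was -0.30 and 1.2 without CRY2 library 1 or 2, and Ptgfr was 0.79 and -0.22 without CRY1 library 1 or 2. Ptger4 in CRY1 against CPN-/- was 0.091 without chromosome medians. Pla2g6 in CRY2 against CPN-/- was 0.045 without the length trend, 0.049 and -0.05 without CPN-/- library 1 or 2 and 0.027 without CRY2 library 1. Ptgr2 in CRY1 against CPN-/- was -0.0031 by library size, -0.012 by upper quartile and 0.05 and -0.0074 without CPN-/- library 1 or 2.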
